A study of Mus musculus with 10 samples.

Results

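The 10 genes described here mark the endothelium of liver tumors, and were taken by symbol from the 52459 genes of an expression table. *Pecam1*, *Kdr*, *Flt1*, *Tek* and *Eng* are expressed by most endothelial cells, *Stab2*, *Lyve1* and *Clec4g* mark the endothelium of liver sinusoids, and *Vwf* and *Plvap* mark other vessels, here called capillary. RNA sequencing was performed on primary liver tumors of transgenic mice, with 5 *MYC*/*Twist1*-HCC (hepatocellular carcinoma) and 5 *MYC*-HCC libraries. Both groups carried the tetracycline transactivator tTA under the promoter of the liver-enriched activator protein (LAP-tTA) and a tetracycline-responsive *MYC* transgene (TRE-*MYC*), which were switched on by withdrawing doxycycline. The *MYC*/*Twist1* mice also carried *Twist1* and firefly luciferase under a bidirectional tetracycline-responsive promoter. The LAP promoter drives the transgenes in hepatocytes, and the libraries are of whole tumor pieces, so which cells gave the transcripts was not measured. The age at collection and whether each library came from a separate mouse are not given in the sources used here, and p-values measure the spread between these libraries, which may be technical in part.

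*Twist1* was at 1.62 to 77.2 FPKM in *MYC*/*Twist1*-HCC, against 0 to 0.29 FPKM in *MYC*-HCC. FPKM is the number of reads per kilobase of gene model and 1 M reads. The depth, estimated from the steps in low values, was 21.1 to 23.8 M reads in *MYC*/*Twist1*-HCC and 19.2 to 23.5 M reads in *MYC*-HCC, where 1 read on a model of 1 kb was worth 0.0421 to 0.0522 FPKM. The hepatocyte markers were abundant in every library, with a sum over 12 genes of 4636 to 12910 FPKM in *MYC*/*Twist1*-HCC and 1939 to 11137 FPKM in *MYC*-HCC. The *MYC*-HCC libraries share one heading in the table and are numbered 1 to 5 in its order. Library 4 of *MYC*-HCC stood apart from the other 4 in most endothelial genes and in the sum of the hepatocyte markers. That sum was 11137 FPKM there and 1939 to 5142 FPKM in the rest of the group. For example *Car3*, the gene of a carbonic anhydrase, was at 2444 FPKM in it and 4.46 to 30.3 FPKM in the others. Not every marker followed, with *Apoa1* at 518 FPKM in it (508 to 1236 FPKM in the others) and *Hnf4a* at 115.1 FPKM (88.3 to 114.8 FPKM). The endothelial gene *Egfl7* was lowest in it, at 5.46 FPKM against 6.10 to 11.19 FPKM. The part of the difference of library 4 in the endothelial results was not tested, and results that rest on library 4 are given with and without it. It was singled out by values that include those of the members, so results without it are descriptions.

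Sinusoids are the low-pressure vessels of the liver. Their endothelial cells are perforated by open pores, lack an organized basement membrane and take up waste molecules through scavenger receptors such as stabilin-2. In liver cancer and fibrosis these cells are known to lose such features and to take on those of continuous capillaries, a change called capillarization. Endothelial growth is driven by VEGF ligands that bind the kinases encoded by *Kdr* and *Flt1*, vessel stability by angiopoietins that bind Tie2, the product of *Tek*, and quiescence by BMP9, for which endoglin, the product of *Eng*, is a co-receptor.

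Members of the ETS transcription factor family bind sites built on GGAA and act at many endothelial promoters, so the stretch before the start site is shown for 3 of the pan-endothelial members, the VEGF receptors and *Eng*. Sequences are from RefSeq on GRCm38.p6, 250 bases before the start, written 5′ to 3′ on the strand of the gene, and capitals mark AGGAAG or its reverse complement CTTCCT. RefSeq gave such a stretch for 6 of the 10 genes.
Flt1: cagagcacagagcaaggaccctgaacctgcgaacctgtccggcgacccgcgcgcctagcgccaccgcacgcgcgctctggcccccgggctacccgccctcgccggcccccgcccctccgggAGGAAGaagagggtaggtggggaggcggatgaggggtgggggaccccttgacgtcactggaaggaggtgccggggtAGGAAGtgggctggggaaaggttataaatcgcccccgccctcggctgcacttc
Eng: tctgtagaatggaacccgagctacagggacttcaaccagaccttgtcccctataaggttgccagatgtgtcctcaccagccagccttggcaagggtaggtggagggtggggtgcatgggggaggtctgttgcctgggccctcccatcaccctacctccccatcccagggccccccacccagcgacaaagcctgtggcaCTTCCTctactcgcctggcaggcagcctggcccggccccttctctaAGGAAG
Kdr: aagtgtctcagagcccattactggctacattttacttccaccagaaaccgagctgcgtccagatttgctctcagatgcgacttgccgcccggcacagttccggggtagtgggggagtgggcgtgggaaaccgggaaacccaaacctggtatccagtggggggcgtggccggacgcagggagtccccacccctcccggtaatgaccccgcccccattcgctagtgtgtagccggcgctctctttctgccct
The *Flt1* stretch (chr5:147726012-147726261, minus strand) and the *Eng* stretch (chr2:32646345-32646594, plus strand) each hold 2 copies, and the *Kdr* stretch (chr5:75978456-75978705, minus strand) holds 0. *Clec4g* had 3 copies, of which 2 overlap, *Stab2* had 1 and *Tek* had 0. Of 32851 promoters of that length, 29.5% hold at least 1 copy on either strand. AGATAA, a site of GATA factors such as the sinusoidal regulator GATA4, was in 0 of the 6 stretches on either strand, with 9.99% of all promoters holding it. The mice were made on the FVB/N strain, whose sequence may differ from this reference. The shorter GGAA core was not counted, and the *Kdr* stretch holds it outside AGGAAG. The matches describe the letters only.

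On the FPKM scale, which allows for gene length, *Plvap* was the most abundant of the 10 genes and *Vwf* the least in both groups. *Plvap* was at a median of 18.8 FPKM in *MYC*/*Twist1*-HCC and 9.98 FPKM in *MYC*-HCC, and it was above *Pecam1* in all 10 libraries. *Pecam1* (median 4.30 and 3.24 FPKM in *MYC*/*Twist1*-HCC and *MYC*-HCC) and *Eng* (4.07 and 2.53 FPKM) followed, with *Pecam1* above *Eng* in 4 of 5 libraries of each group. *Eng* was above the next gene in 5 of 5 libraries of each group. Below it the order changed between groups. *Lyve1*, *Kdr*, *Flt1*, *Stab2* and *Tek* followed in *MYC*/*Twist1*-HCC with medians of 1.42, 1.15, 0.84, 0.67 and 0.55 FPKM. In *MYC*-HCC the order was *Kdr*, *Stab2*, *Flt1*, *Lyve1* and *Tek*, with medians of 1.16, 1.15, 0.46, 0.43 and 0.36 FPKM. Most neighbours in this range exchanged places in at least 1 library, as *Lyve1* and *Kdr* did in 2 of 5 *MYC*/*Twist1*-HCC libraries and *Stab2* and *Flt1* did in 2 of 5 *MYC*-HCC libraries. *Clec4g* and *Vwf* were last, at 0.40 and 0.21 FPKM in *MYC*/*Twist1*-HCC and 0.17 and 0.03 FPKM in *MYC*-HCC.

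**Figure D1:**
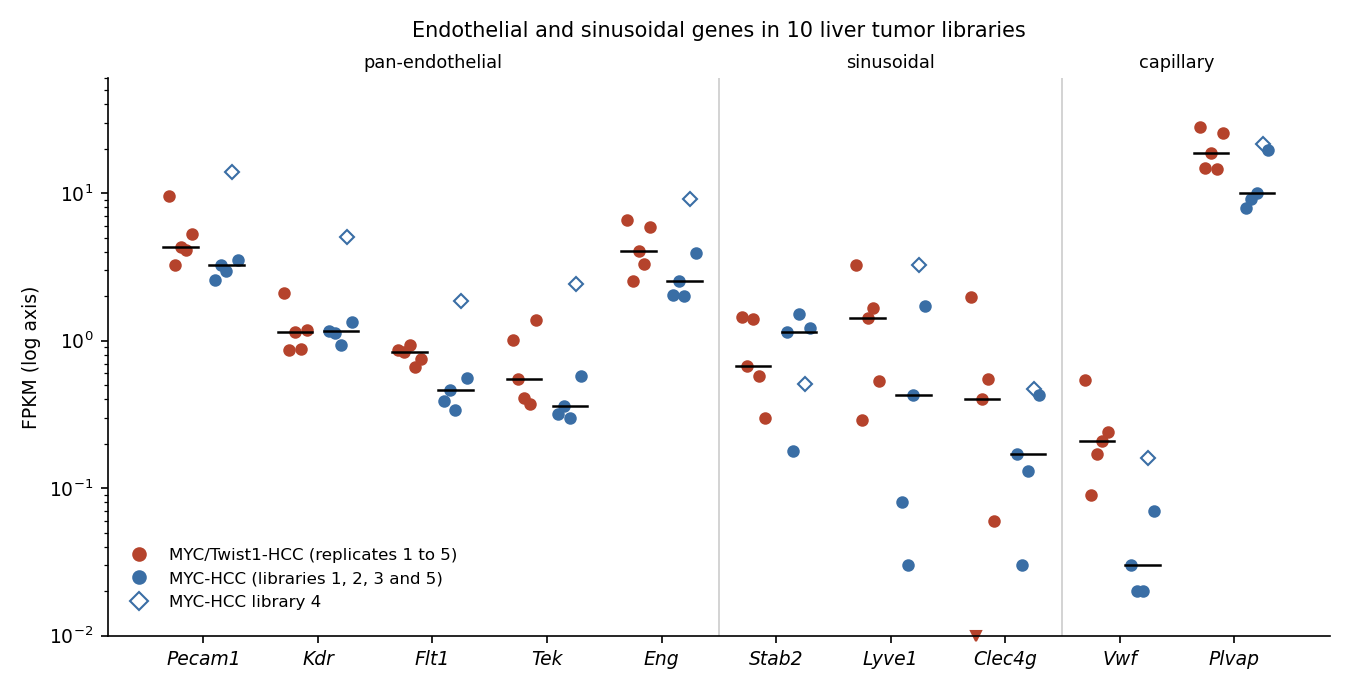
FPKM of the 10 genes in each library on a log axis, with *MYC*/*Twist1*-HCC left of *MYC*-HCC for every gene, black lines at the group medians and an open diamond for *MYC*-HCC library 4 (a triangle on the axis is a value listed at 0). Library 4 lies above the other *MYC*-HCC libraries for each gene except *Stab2*, where it is at 0.51 FPKM.

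The 12146 genes that reached 0.5 FPKM in 5 or more libraries were tested by limma on log2(FPKM + 0.1). A positive difference means higher in *MYC*/*Twist1*-HCC on that scale, a scale that understates the change of low genes. Of the 8 members that passed this filter, 0 passed the test at an adjusted p of 0.05, where 0.0247% of all genes tested did (3 genes, all higher). At an unadjusted p under 0.05 it was 0 of 8, where 7.83% of all genes were higher and 8.51% lower. The difference was positive for 7 of the 8 genes, with a median of 0.30, against a median of -0.04 over all genes tested, of which 45.9% were positive. Without *MYC*-HCC library 4, again 0 of 8 passed, where 9.05% of all genes did. The median over the 8 genes was then 0.69 and that of all genes -0.06. At an unadjusted p under 0.05 without that library, 4 of 8 were higher (*Pecam1*, *Flt1*, *Eng* and *Plvap*) and 0 lower, where 12.8% of all genes were higher. With limma's library quality weights, which gave library 4 a weight of 0.184 and the others 0.599 to 4.02, 3 of the 8 were called higher (*Flt1*, *Lyve1* and *Plvap*), where 8.3% of all genes were. *Vwf* and *Clec4g* were below the filter and are given from a fit of 29038 genes with no filter.

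*Pecam1* (GRCm38, chr11:106654217-106750628), which encodes the adhesion molecule CD31 of endothelial junctions, was at 9.62, 3.28, 4.30, 4.12 and 5.26 FPKM in replicates 1 to 5 of *MYC*/*Twist1*-HCC, against 2.58, 3.24, 2.98, 13.8 and 3.50 FPKM in *MYC*-HCC libraries 1 to 5. The highest value of all was *MYC*-HCC library 4, at 4.45 times the median of the other 4, and the groups overlapped. The means were 5.32 ± 2.51 FPKM in *MYC*/*Twist1*-HCC and 5.23 ± 4.83 FPKM in *MYC*-HCC (SD, n = 5 each), with a log2 difference of 0.25 (SE 0.45, limma adjusted p = 0.809). Without library 4 the *MYC*-HCC mean was 3.08 ± 0.392 FPKM (SD, n = 4), and the log2 difference 0.68 (SE 0.27, adjusted p = 0.126). Without *MYC*/*Twist1*-HCC replicate 1, the highest of its group, the log2 difference was 0.0117, and without *MYC*-HCC library 1 it was 0.082. Every *MYC*/*Twist1*-HCC replicate was above the *MYC*-HCC median. In bulk tumor RNA, a difference in the number of endothelial cells and one in the RNA per cell cannot be told apart.

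*Kdr* (chr5:75932827-75978458), which encodes VEGFR2, the main signaling receptor for VEGF-A, was at 2.11, 0.86, 1.15, 0.88 and 1.19 FPKM in *MYC*/*Twist1*-HCC, against 1.16, 1.13, 0.93, 5.04 and 1.34 FPKM in *MYC*-HCC. Its log2 difference was -0.36 (SE 0.43, adjusted p = 0.695) and, without library 4, 0.05 (SE 0.27, adjusted p = 0.922). The groups overlapped with and without that library.

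*Flt1* (chr5:147561604-147726011) encodes VEGFR1, which binds VEGF-A tightly and signals weakly, and whose soluble form acts as a decoy. Its values were 0.87, 0.84, 0.94, 0.66 and 0.75 FPKM in *MYC*/*Twist1*-HCC, against 0.39, 0.46, 0.34, 1.85 and 0.56 FPKM in *MYC*-HCC. The *MYC*/*Twist1*-HCC replicates were the most even of any member, with a highest value 1.42 times the lowest, and all 5 were above *MYC*-HCC libraries 1, 2, 3 and 5 and below library 4. The log2 difference was 0.40 (SE 0.39, adjusted p = 0.628), and 0.77 (SE 0.24, adjusted p = 0.0675) without library 4. With all libraries 0 of the 8 genes tested separated the groups upward, where 2.35% of all genes did. Without library 4, *Flt1* was the 1 of 8 with every *MYC*/*Twist1*-HCC library higher, where 6.04% of all genes were. The exact two-sided permutation p for *Flt1* was 0.365 with all libraries and 0.00794 without library 4, the smallest that 5 against 4 allows. Of 10 cases with 1 library left out, this was the 1 with a p under 0.05. Library 4 was singled out by values that include those of *Flt1*, so the p without it is a description and not a test.

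*Tek* (chr4:94739289-94874976), the gene of the angiopoietin receptor Tie2, was at 1.01, 0.55, 0.41, 0.37 and 1.39 FPKM in *MYC*/*Twist1*-HCC, against 0.32, 0.36, 0.30, 2.43 and 0.58 FPKM in *MYC*-HCC. *MYC*-HCC library 4 was at 7.15 times the median of the other 4, the largest such ratio among the 5 pan-endothelial genes. The log2 difference was 0.19 (SE 0.55, adjusted p = 0.886), and 0.67 (SE 0.40, adjusted p = 0.278) without library 4.

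*Eng* (chr2:32646595-32682669) was at 6.55, 2.52, 4.07, 3.29 and 5.93 FPKM in *MYC*/*Twist1*-HCC, against 2.04, 2.53, 2.01, 9.09 and 3.93 FPKM in *MYC*-HCC. Replicates 1 and 5 of *MYC*/*Twist1*-HCC and library 4 of *MYC*-HCC were the 3 highest. The log2 difference was 0.35 (SE 0.42, adjusted p = 0.696), and 0.71 (SE 0.31, adjusted p = 0.144) without library 4. Its exons share 61 bp with *Fpgs* on the other strand, and whether the counting used strand is not given in the sources used here.

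**Figure D2:**
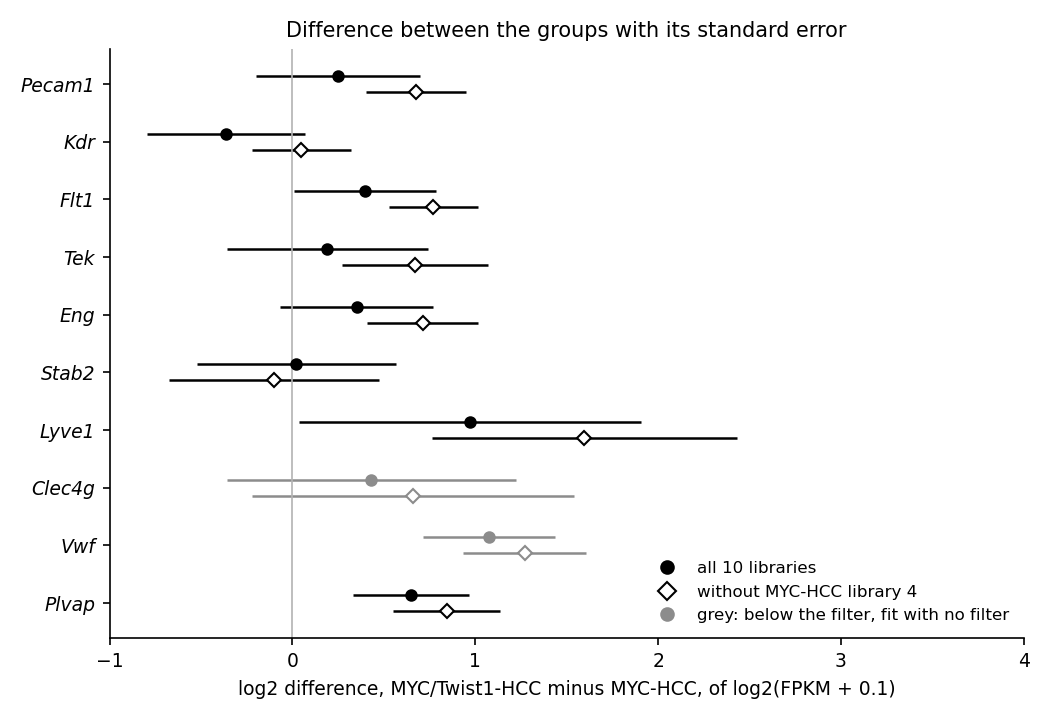
Log2 difference of each gene, *MYC*/*Twist1*-HCC minus *MYC*-HCC, with bars of 1 standard error, from all 10 libraries (filled circles) and without *MYC*-HCC library 4 (open diamonds), with the genes below the filter in grey. Without that library the estimate is higher for 9 of the 10 genes, and *Stab2* is at -0.10.

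The 3 sinusoidal genes varied more between tumors of 1 group than between the groups, as *Pecam1*, *Tek* and *Eng* also did. Within *MYC*-HCC the same held for *Kdr* and *Flt1*. *Stab2* (chr10:86841198-87008025), which encodes stabilin-2, the hyaluronan scavenger receptor of sinusoidal endothelium, was at 1.45, 0.67, 1.40, 0.58 and 0.30 FPKM in *MYC*/*Twist1*-HCC, against 1.15, 0.18, 1.52, 0.51 and 1.21 FPKM in *MYC*-HCC. Both groups spanned nearly the same range, and the means were 0.88 ± 0.516 and 0.914 ± 0.551 FPKM in *MYC*/*Twist1*-HCC and *MYC*-HCC (SD, n = 5 each). The log2 difference was 0.02 (SE 0.54, adjusted p = 0.989), and its sign turned in several alternatives. *MYC*-HCC library 4, the highest in the 5 pan-endothelial genes, had 0.432 times the median of the other *MYC*-HCC libraries. *Stab2* shares 141 bp of exon with *Gm16268* on the other strand.

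*Lyve1* (chr7:110850607-110863239), a hyaluronan receptor of lymphatic and sinusoidal endothelium that some tissue macrophages also carry, was at 3.24, 0.29, 1.42, 1.67 and 0.53 FPKM in *MYC*/*Twist1*-HCC, against 0.08, 0.03, 0.43, 3.26 and 1.72 FPKM in *MYC*-HCC. The lowest 2 values were in *MYC*-HCC, at about 5 and 2 reads, and the highest, in library 4, was also in *MYC*-HCC. The log2 difference was the largest of the 8 tested, 0.97, with an SE nearly as large (0.94, adjusted p = 0.620), and 1.60 (SE 0.83, adjusted p = 0.218) without library 4. It was 0.42 without *MYC*-HCC library 2, 0.54 without library 1, 0.59 without *MYC*/*Twist1*-HCC replicate 1 and 0.31 with 1 added in place of 0.1. Quality weights, which counted *MYC*-HCC library 1 (0.08 FPKM) most, gave 2.39 (SE 0.77, adjusted p = 0.0487).

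*Clec4g* (chr8:3707064-3720651) encodes LSECtin, a C-type lectin of liver sinusoids. It was at 1.98, 0, 0.40, 0.55 and 0.06 FPKM in *MYC*/*Twist1*-HCC, against 0.17, 0.03, 0.13, 0.47 and 0.43 FPKM in *MYC*-HCC. Replicate 1 of *MYC*/*Twist1*-HCC held about 110 reads and the other libraries about 0 to 31, and the 0 in replicate 2 allows up to 0.0513 FPKM (3 reads, counting error only). With no filter the log2 difference was 0.43 (SE 0.79, adjusted p = 0.847). The exact permutation p was 0.651. *Clec4g* shares 146 bp of exon with *Gm16553* on the other strand.

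Both capillary genes had a higher median in *MYC*/*Twist1*-HCC, and neither passed the test. The median was also higher for *Pecam1*, *Flt1*, *Tek*, *Eng*, *Lyve1* and *Clec4g*, and lower for *Kdr* and *Stab2*. *Plvap* (chr8:71497765-71511752), which encodes the protein of the diaphragms that close endothelial pores and caveolae, was at 28.0, 14.9, 18.8, 14.6 and 25.8 FPKM in *MYC*/*Twist1*-HCC, against 7.97, 9.07, 9.98, 21.6 and 19.7 FPKM in *MYC*-HCC. All 5 *MYC*/*Twist1*-HCC values were above *MYC*-HCC libraries 1, 2 and 3, while *MYC*-HCC libraries 4 and 5 fell among them. The means were 20.4 ± 6.18 FPKM in *MYC*/*Twist1*-HCC and 13.7 ± 6.45 FPKM in *MYC*-HCC (SD, n = 5 each), with a log2 difference of 0.65 (SE 0.32, adjusted p = 0.332). Without library 4 it was 0.84 (SE 0.29, adjusted p = 0.0863). The exact permutation p was 0.119 with all libraries and 0.0714 without library 4.

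*Vwf* (chr6:125546774-125686679), the gene of von Willebrand factor, which binds platelets and is stored in endothelial cells and megakaryocytes, was at 0.54, 0.09, 0.17, 0.21 and 0.24 FPKM in *MYC*/*Twist1*-HCC, against 0.03, 0.02, 0.02, 0.16 and 0.07 FPKM in *MYC*-HCC. The gene model is long, so these values stand for about 196, 34, 59, 77 and 82 reads in *MYC*/*Twist1*-HCC and 10, 8, 6, 54 and 26 reads in *MYC*-HCC, with rounding to 0.01 FPKM worth up to 1.91 reads either way. Without library 4 the groups did not overlap, and with it only replicate 2 of *MYC*/*Twist1*-HCC lay below a *MYC*-HCC value. Of the genes past the filter, which leaves *Vwf* out, 6.04% were separated upward without library 4. The log2 difference was 1.08 (SE 0.36, unadjusted p = 0.0127, adjusted p = 0.373, no filter), and the exact permutation p was 0.0159 with and without library 4. In that limma fit 1 of 10 members and 1484 of 29038 genes were higher at an unadjusted p under 0.05. With 0.01 added in place of 0.1 the log2 difference was 2.02, since the added constant weighs on a gene this low.

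Platelet and red cell markers are given beside *Vwf*, since blood cells are a further source of it. The 9 megakaryocyte and platelet markers summed to 45.2, 8.17, 6.03, 8.98 and 1.19 FPKM in replicates 1 to 5 of *MYC*/*Twist1*-HCC, against 1.02 to 1.91 FPKM in *MYC*-HCC, with *Gp9* at 0 in some libraries of each group. Replicate 1, the highest for *Vwf*, was the highest for this sum, while replicate 5, second for *Vwf*, was at a sum within the *MYC*-HCC range. Of the 9 markers 2 were tested and 0 passed, *Ppbp* with a log2 difference of 3.28 (SE 0.94, adjusted p = 0.163) and *Pf4* with 1.64 (SE 0.68, adjusted p = 0.273). The 8 erythroid markers summed to 171 to 2265 FPKM in *MYC*/*Twist1*-HCC and 38.8 to 139.9 FPKM in *MYC*-HCC, with no overlap. All 6 erythroid genes tested were called higher without library 4, where 4.33% of all genes were. With it 0 were called, and 6 were higher at an unadjusted p under 0.05. The part of blood in the values of *Vwf* was not tested.

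The question of sinusoidal against capillary identity was put to the mean log2(FPKM + 0.1) of the 3 sinusoidal genes minus that of the 2 capillary genes. This difference of levels was -0.94, -2.44, -1.11, -1.21 and -3.11 in *MYC*/*Twist1*-HCC, against -1.38, -2.64, -0.92, -1.17 and -0.76 in *MYC*-HCC. The groups overlapped over most of their range, with means of -1.76 ± 0.96 in *MYC*/*Twist1*-HCC and -1.38 ± 0.75 in *MYC*-HCC (SD, n = 5 each). The capillary mean was 1.34 ± 0.51 in *MYC*/*Twist1*-HCC and 0.47 ± 0.55 in *MYC*-HCC, while the sinusoidal mean, with the larger SD, was -0.43 ± 1.19 in *MYC*/*Twist1*-HCC and -0.90 ± 1.12 in *MYC*-HCC. The capillary mean was the higher of the 2 in all 10 libraries. This rests on *Plvap*, since *Vwf* had the lowest median FPKM of the 10 genes in both groups. The difference between the group means was -0.39, and -0.05 without *MYC*/*Twist1*-HCC replicate 5, -0.71 without *MYC*-HCC library 2 and -0.81 with 0.01 added in place of 0.1. With 2 and 3 genes a class, and *Vwf* and *Clec4g* near the detection limit, this index is a description and was not tested.

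**Figure D3:**
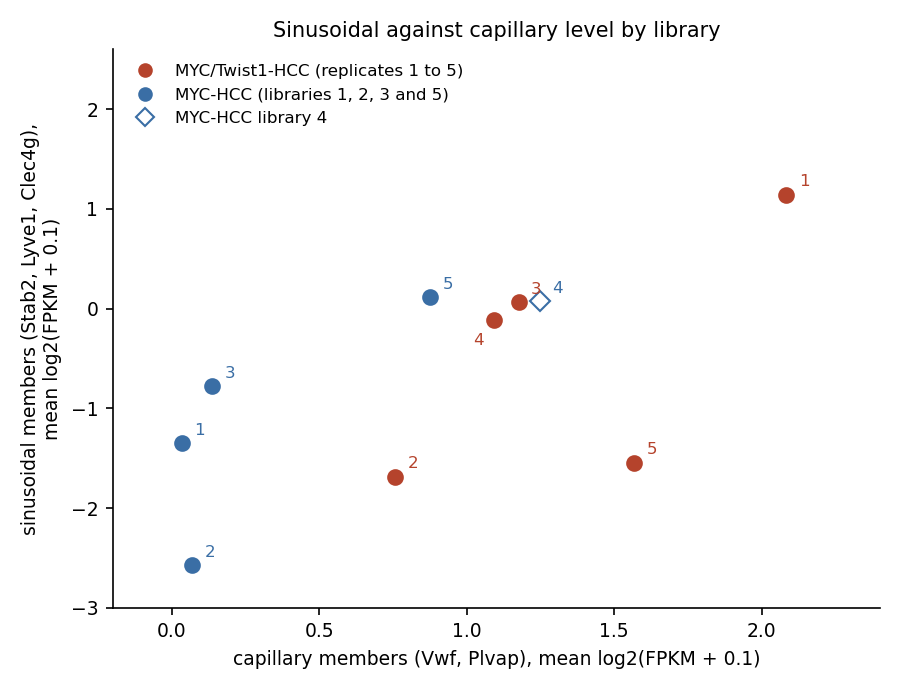
Mean log2(FPKM + 0.1) of the sinusoidal genes (vertical) against that of the capillary genes (horizontal), 1 point per library with its number, *MYC*/*Twist1*-HCC in red and *MYC*-HCC in blue. The *MYC*/*Twist1*-HCC points lie further right on average (1.34 against 0.47), and both groups overlap vertically.

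Scaling to *Pecam1* within each library, as a stand-in for the endothelial level, set *Kdr* and *Vwf* apart from the other members. Whether *Pecam1* came only from endothelial cells in these tumors was not tested. This scaling was chosen after the data were seen. The FPKM ratio of *Kdr* to *Pecam1* was 0.219, 0.262, 0.267, 0.214 and 0.226 in *MYC*/*Twist1*-HCC, against 0.450, 0.349, 0.312, 0.364 and 0.383 in *MYC*-HCC. All 5 *MYC*/*Twist1*-HCC ratios were below all 5 *MYC*-HCC ratios, library 4 included. *Kdr* was the 1 of the 7 other members tested to lie so, where 0.156% of all genes tested did. That share and the one given below beside *Vwf* cover all genes past the filter, whether or not they follow *Pecam1*. They are not shares of endothelial genes, which were not computed. The ratio rests on at least 160 reads of *Kdr* and 341 reads of *Pecam1* in every library.

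For *Vwf* the ratio to *Pecam1* lay the other way, at 0.0561, 0.0274, 0.0395, 0.0510 and 0.0456 in *MYC*/*Twist1*-HCC, against 0.0116, 0.00617, 0.00671, 0.0116 and 0.02 in *MYC*-HCC. It was higher in all 5 *MYC*/*Twist1*-HCC libraries than in all 5 *MYC*-HCC libraries, and 0 of the 7 members tested lay so, where 0.329% of all genes tested did. *Vwf* itself was below the filter behind that share. The exact permutation p was 0.00794 for each of *Kdr* and *Vwf*, the smallest that 5 against 5 allows, unadjusted, among 9 ratios computed. In limma over all genes neither ratio passed, with log2 differences of -0.61 for *Kdr* (SE 0.52, adjusted p = 0.998) and 0.83 for *Vwf* (SE 0.60, adjusted p = 0.999, no filter). That fit called 0 of the 7 members, where 0.0741% of genes were called, and the spread of *Pecam1* enters every gene in it.

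The other 7 ratios overlapped. *Stab2* per *Pecam1* was at a median of 0.151 in *MYC*/*Twist1*-HCC (0.0570 to 0.326) and 0.346 in *MYC*-HCC (0.0368 to 0.510), with the lowest value in *MYC*-HCC library 4. *Lyve1* per *Pecam1* was at 0.330 (0.0884 to 0.405) in *MYC*/*Twist1*-HCC and 0.144 (0.00926 to 0.491) in *MYC*-HCC. *Eng* kept nearly the same ratio, at 0.799 (0.681 to 1.13) in *MYC*/*Twist1*-HCC and 0.781 (0.657 to 1.12) in *MYC*-HCC.

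**Figure D4:**
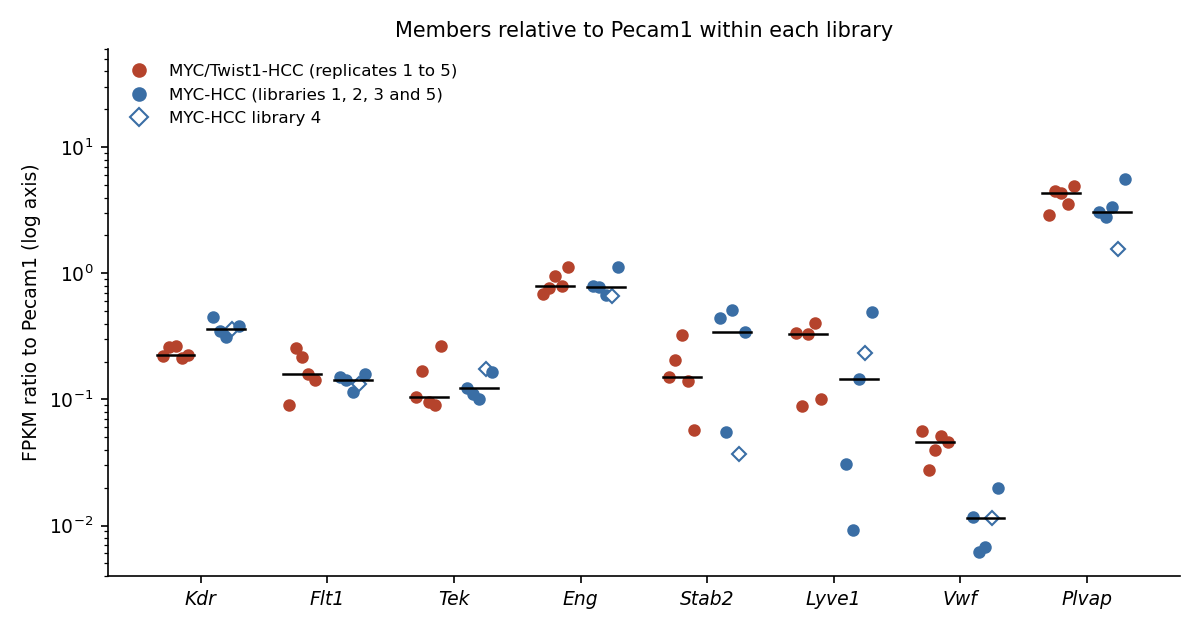
FPKM ratio of 8 genes to *Pecam1* in the same library on a log axis, *MYC*/*Twist1*-HCC left of *MYC*-HCC, with black lines at the group medians and an open diamond for *MYC*-HCC library 4 (*Clec4g* is left out because of its 0). The groups do not overlap for *Kdr* (lower in *MYC*/*Twist1*-HCC) and *Vwf* (higher), and library 4 sits with its own group for both.

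With the level of 19 other endothelial genes subtracted from each library in place of *Pecam1*, 0 of the 8 members passed and 0 had an unadjusted p under 0.05, where 0.107% of all genes passed. In that fit the log2 difference of *Kdr* was -0.49 (SE 0.46) and that of *Plvap* 0.53 (SE 0.47), each with an adjusted p of 0.9998. These 19 genes, *Cdh5*, *Tie1*, *Clec14a* and others of a list of 20, themselves had a median log2 difference of 0.17 with all libraries (12 of 19 positive) and 0.53 without library 4 (17 of 19 positive). Of them 0 were called with all libraries, where 0 had an unadjusted p under 0.05, and 0 without library 4, where 3 did. Summed over the list, they were at 34.9 to 97.0 FPKM in *MYC*/*Twist1*-HCC, against 40.1 to 50.9 FPKM in 4 *MYC*-HCC libraries and 144.6 FPKM in library 4.

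Across the 10 libraries the 5 pan-endothelial genes were correlated with each other, less so without the libraries in which they were highest. The r of *Stab2* with each was slightly negative with all libraries and of mixed sign without library 4. Pearson's r of log2(FPKM + 0.1) among the 5 ran from 0.734 to 0.931 (median 0.842, n = 10 libraries), the lowest for *Kdr* and *Flt1*. Without library 4 it ran from 0.277 to 0.896 (median 0.705, n = 9), and without that library and *MYC*/*Twist1*-HCC replicate 1 from -0.058 to 0.928 (median 0.592, n = 8), with *Kdr* and *Flt1* again the lowest pair in both. *Stab2* had r of -0.265 to -0.046 with the same 5 genes, and -0.183 to 0.274 (median 0.002) without library 4. With all libraries *Lyve1* was between, at 0.555 to 0.764, *Clec4g* at 0.268 to 0.596, *Plvap* at 0.475 to 0.878 and *Vwf* at 0.362 to 0.756. Without library 4 and replicate 1, *Lyve1* was at 0.038 to 0.580, *Clec4g* at -0.256 to 0.248, *Plvap* at 0.258 to 0.927 and *Vwf* at -0.051 to 0.904. Within the classes, *Lyve1* and *Clec4g* were at 0.815 and *Vwf* and *Plvap* at 0.849, while *Stab2* was at 0.366 with *Lyve1* and 0.514 with *Clec4g*. The points share libraries, their depth and both groups, and these values are a description.

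**Figure D5:**
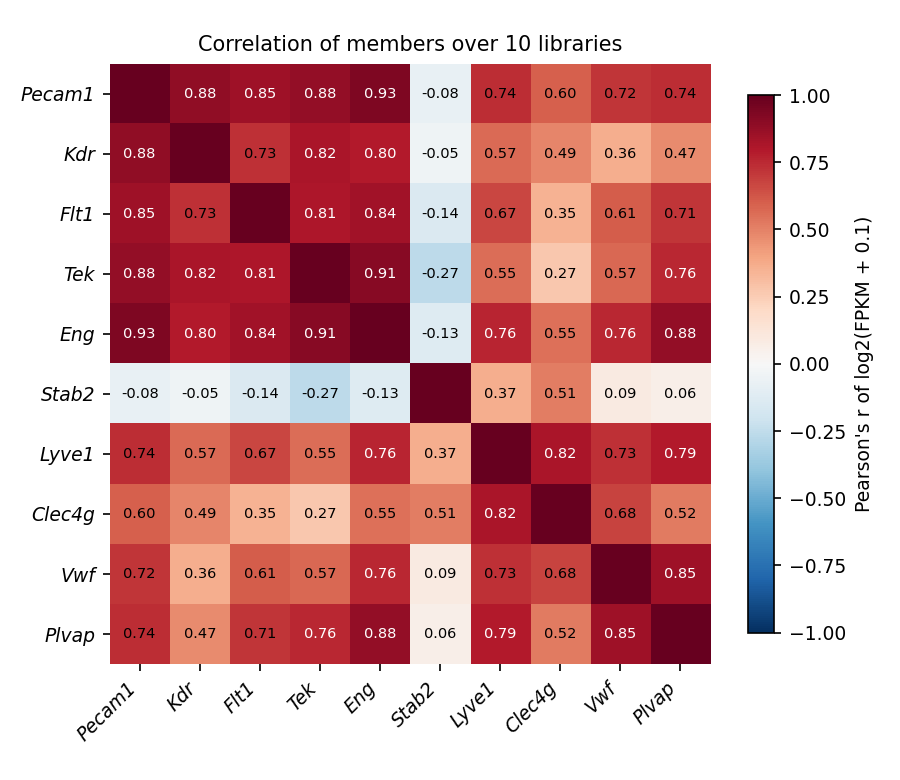
Pearson's r of log2(FPKM + 0.1) for each pair of the 10 genes over the 10 libraries of both groups, from blue (-1) to red (1). The block of the first 5 genes is red throughout, and the *Stab2* row is pale, from -0.27 to 0.51.

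Over the 12146 genes tested, those most like the mean of the 5 pan-endothelial genes were *Arhgap31* (r = 0.986), *Tie1* (0.982), *Adgrf5* (0.981), *Cdh5* (0.971) and *Sema7a* (0.969), over 10 libraries. *Tie1* and *Cdh5*, the orphan partner of Tie2 and the endothelial cadherin, are textbook markers of the same cells. The genes most like the mean of the 3 sinusoidal genes were *Oit3* (r = 0.944), a gene of liver sinusoidal endothelium, and *Clec4f* (0.893), a lectin of mouse Kupffer cells, followed by *Zdhhc14*, *Gm15796* and *Pclaf* (0.863 to 0.893). *Oit3* and *Clec4f* also led for *Clec4g* (0.945 and 0.927), and for *Lyve1* the first was *Msr1* (0.951), a scavenger receptor of macrophages. For *Stab2* the first was *Nptn* (0.955), and the next gene had 0.816. *Nrp1*, a VEGF co-receptor, led for *Eng* (0.981), *Timp3* for *Plvap* (0.963), *C1s1* for *Vwf* (0.957), *Rasgrp3* for *Kdr* (0.976), *Crat* for *Flt1* (0.984), *Inpp1* for *Tek* (0.979) and *Cdh5* for *Pecam1* (0.986).

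Other sinusoidal genes gave no called change either. Of 18 in the list 10 were tested, 9 had a positive difference (median 0.37) and 0 passed, with 1 at an unadjusted p under 0.05. That gene was *Stab1*, the gene of stabilin-1, the paralog of stabilin-2, with 0.66 to 1.80 FPKM in *MYC*/*Twist1*-HCC, against 0.38 to 1.26 FPKM in *MYC*-HCC and a log2 difference of 0.89 (SE 0.36, adjusted p = 0.272). *Wnt2* and *Wnt9b*, angiocrine signals of central vein and sinusoidal endothelium, were at or under 0.09 FPKM in every library. Of 18 other genes of capillary and continuous endothelium 12 were tested and 0 passed, with a median of 0.02, 6 of 12 positive and 0 at an unadjusted p under 0.05. Without library 4 the median was 0.42 with 10 of 12 positive.

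In the pathways of the receptors, 0 genes were called with all libraries in the VEGF, angiopoietin, BMP9 and Notch lists. Of the VEGF ligands and receptors 5 besides the members were tested, 4 of them positive. *Vegfa*, the ligand of both receptors, was at 5.07 to 12.0 FPKM in *MYC*/*Twist1*-HCC and 4.28 to 12.3 FPKM in *MYC*-HCC, a log2 difference of 0.21 (SE 0.31, adjusted p = 0.762), with its highest value in *MYC*-HCC library 4. *Nrp2*, a co-receptor for VEGF and semaphorins, had the 1 unadjusted p under 0.05 in this list, with 0.64 to 5.60 FPKM in *MYC*/*Twist1*-HCC, against 3.34 to 8.89 FPKM in *MYC*-HCC and a log2 difference of -1.49 (SE 0.52, adjusted p = 0.225). In the angiopoietin list 4 of 7 were tested, all 4 positive with 0 at an unadjusted p under 0.05. *Angpt2*, the context-dependent antagonist of Tie2, was at 0.75 to 2.68 FPKM in *MYC*/*Twist1*-HCC and 0.77 to 4.79 FPKM in *MYC*-HCC, the top value again in library 4, while *Angpt1*, the agonist, was at 0 to 0.33 FPKM in all libraries.

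In the BMP9 list 7 of 10 genes were tested and 2 had an unadjusted p under 0.05, both higher, where 7.83% of all genes tested were. *Id1*, a target of BMP signaling, was at 4.57 to 9.62 FPKM in *MYC*/*Twist1*-HCC and 2.35 to 5.33 FPKM in *MYC*-HCC (log2 difference 0.82, SE 0.25, adjusted p = 0.182), and *Smad1*, a signal transducer of the pathway, was at 0.34 on the log2 scale (SE 0.14, adjusted p = 0.267). *Acvrl1*, the receptor ALK1 that acts with endoglin, had 0.23 (SE 0.28, adjusted p = 0.702). Both *Id1* and *Smad1* are also expressed in hepatocytes. In the Notch list 7 of 11 were tested, with 1 higher (*Notch2*, 0.37) and 1 lower (*Hes1*, -0.59) at an unadjusted p under 0.05. *Dll4*, the Notch ligand of tip cells, was at -0.09 on the log2 scale (SE 0.49, adjusted p = 0.941), and at 0.32 without library 4.

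Among tip cell and tumor endothelium genes, 8 of 10 were tested, with a median log2 difference of -0.24 (3 of 8 positive), 0 called and 0 at an unadjusted p under 0.05. Without library 4 the median turned to 0.08 with 5 of 8 positive. *Apln*, a peptide of sprouting endothelium, was at 0.14 to 2.51 FPKM in *MYC*/*Twist1*-HCC, against 0.70 to 1.11 FPKM in 4 *MYC*-HCC libraries and 8.68 FPKM in library 4. Among the genes of the vascular basement membrane, whose deposition accompanies capillarization, 10 of 11 were tested, 0 were called with all libraries and 1 had an unadjusted p under 0.05. *Col18a1*, which encodes the precursor of endostatin and is also made by hepatocytes, was at 75.8 to 136.7 FPKM in *MYC*/*Twist1*-HCC and 33.65 to 70.0 FPKM in *MYC*-HCC with no overlap, a log2 difference of 0.99 (SE 0.23, adjusted p = 0.121). It was called without library 4 (1.10, adjusted p = 0.0262). *Col4a1* and *Col4a2*, the common collagens of that membrane, had 0.13 (SE 0.16, adjusted p = 0.697) and -0.09 (SE 0.20, adjusted p = 0.834).

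Markers of neighbouring cells that share some members were also measured. The 7 Kupffer cell markers summed to 28.1 to 327.6 FPKM in *MYC*/*Twist1*-HCC and 43.8 to 215.0 FPKM in *MYC*-HCC, with 43.8 FPKM in library 4, the lowest of that group, where *Lyve1* was highest. Most of that sum was *Cd5l*, at 31.65 FPKM in library 4 against 114.8 to 199.27 FPKM in the rest of *MYC*-HCC. The markers did not move together. *Timd4*, *Marco* and *Cd163* were also lowest in library 4, and *Vsig4* and *Folr2* lay within the range of the group. *Clec4f* was highest there, at 4.35 FPKM against 0.07 to 2.3 FPKM in the rest of *MYC*-HCC. The 9 macrophage markers summed to 294 to 885 FPKM in *MYC*/*Twist1*-HCC and 200 to 573 FPKM in *MYC*-HCC, and 0 of 9 were called, with *Mertk* the 1 at an unadjusted p under 0.05. Pericyte, stellate and smooth muscle markers, 12 genes, summed to 9.84 to 49.7 FPKM in *MYC*/*Twist1*-HCC, against 19.0 to 30.8 FPKM in 4 *MYC*-HCC libraries and 58.7 FPKM in library 4. Library 4 thus had the highest sum of *MYC*-HCC for mural, hepatocyte and pan-endothelial genes. Of 8 tested 0 were called and 0 had an unadjusted p under 0.05. Of 7 lymphatic markers 2 were tested and 0 were called, *Flt4* with 0.39 (SE 0.44, adjusted p = 0.675) and *Prox1*, which hepatocytes also express, with 0.31 (SE 0.18, adjusted p = 0.402). The part of these cells in the results was not tested.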

How the data were processed

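The deposited table gives FPKM to 2 decimals. Trimmomatic, STAR, Picard, featureCounts, DESeq2 and the mm10 build are named, without versions, in the submitters' processing notes, and the paper names RSEM, so which counter gave the FPKM is not settled here. Depth was estimated from genes with models of 60 to 150 bp, whose values came to whole reads within 0.1 read for at least 99.5% of them. Its intervals cover counting error only.

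Genes that reached 0.5 FPKM in 5 or more libraries were tested as log2(FPKM + 0.1) with limma 3.58.1 (R 4.3.3), two-sided, with a variance trend, Benjamini-Hochberg adjustment over all genes tested and a threshold of 0.05. A second fit subtracted the mean of 19 other endothelial genes per library. The exact permutation test compared mean log2 values over all assignments. The study's test on counts was replaced because the values are FPKM. The fit was tested on simulated data. Tables and figures were made in Python 3.11.15 (pandas 2.3.3, numpy 2.4.6, matplotlib 3.10.9). Gene models were GENCODE vM21.

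The alternatives were an added 1 or 0.01, quantile normalization, median-ratio scaling, library quality weights, no variance trend, no filter or a filter on a mean of 1 FPKM, and each library left out. The fit relative to *Pecam1*, no filter with 0.01 added and no filter without library 4 were chosen after the data were seen.

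Named are all 10 members, genes of each list past the threshold or else up to 3 with the smallest p, and up to 5 genes most like each member or class by Pearson's r. *Wnt2*, *Wnt9b*, *Vegfa*, *Angpt1*, *Angpt2*, *Acvrl1*, *Dll4*, *Col4a1*, *Col4a2*, *Car3* and *Gp9* were added for their known roles after their values were seen. The members and lists were chosen with earlier results of these data known.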

Additional observations from a re-analysis of the deposited data

Results flagged for a closer look

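In 4 of the 20 sets of 5 libraries examined (10 genes in each group), 1 library lay far from the other 4 on the log2 scale, by Dixon's criterion, which chance meets in about 1 of 20 groups. All 4 were the same *MYC*-HCC library 4, so they are not independent. *Pecam1* was at 13.84 FPKM there, with 0.821 of the group's range lying between it and the next library. *Kdr* was at 5.04 FPKM, *Flt1* at 1.85 FPKM and *Tek* at 2.43 FPKM, with 0.792, 0.728 and 0.712 of the range. The same library was at 0.51 FPKM for *Stab2*, within the range of its group.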

How the results depend on the processing

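The number of genes called, 3 of all genes tested, was 5 with 1 added in place of 0.1, 1 with 0.01 added, 1 with no filter and 0.01 added, 21 with no filter and without *MYC*-HCC library 4, 2477 with library quality weights and 1 to 1099 with each library left out, the highest without *MYC*-HCC library 4. Relative to the endothelial level, where 13 were called, it was 22 with no filter, 20 with a mean of at least 1 FPKM, 24 with quantile normalization, 2224 with quality weights, 1 with no filter and 0.01 added, 414 with no filter and without library 4, and 1 to 933 with each library left out. Quality weights called 3 of 8 members, where 2477 of 12146 genes were called. Relative to the endothelial level they called 1 of 8 (*Lyve1*), where 2224 of 12146 genes were called. They also moved *Kdr* relative to *Pecam1* past the threshold (-0.62, limma adjusted p = 0.0392), where its range with each library left out was -0.66 to -0.54. The share of all genes called in that weighted fit is not given here, so the call has no background beside it.

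The log2 difference of *Stab2* turned to -0.0162 with 1 added, -0.21 with quantile normalization, -0.10 with quality weights and -0.10 with no filter without library 4, and ran from -0.38 to 0.30 with each library left out. *Kdr* turned to 0.17 with quality weights and 0.0489 with no filter without library 4, and ran from -0.56 to 0.0489 with each library left out. *Tek* ran from -0.0507 to 0.67. Relative to the endothelial level *Tek* turned to -0.0076 with 1 added, -0.0274 with quantile normalization and -0.0468 with quality weights and ran from -0.15 to 0.20 with each library left out, *Stab2* ran from -0.57 to 0.20, and *Clec4g* turned to -0.0242 with no filter and 0.01 added. The exact permutation p ran from 0.262 to 0.937 for *Kdr*, 0.151 to 0.992 for *Tek*, 0.476 to 0.937 for *Stab2* and 0.294 to 0.905 for *Clec4g* with each library left out, with the direction turned in at least 1 case for each. The exact p for *Pecam1* ran from 0.0317 to 0.992 and that for *Flt1* from 0.00794 to 0.619, the lowest of each without library 4, and that for *Vwf* from 0.0159 to 0.0397. The cause of these changes was not tested. Of 161 recomputed log2 differences of the members between the groups, 146 kept direction and side of the threshold, 12 changed direction and 3 passed the threshold. The values relative to the endothelial level or to *Pecam1* and the exact p are not part of this count.

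No paired analysis was possible because the *MYC*-HCC columns share one heading and carry no replicate numbers. *Vwf*, *Clec4g* and the low values of *Lyve1* rest on few reads, and 2 decimals limit *Vwf* further. Leaving out *MYC*-HCC library 4 raised the log2 difference of 9 of the 10 genes and lowered that of *Stab2*.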
